A study of Homo sapiens with 8 samples.

Results

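The genes described here are those whose expression answered an NR1D1 vector differently in 2 human thyroid cancer cell lines, TPC-1 and FTC-133. For each gene the response of a line was log2 of its value with the NR1D1 vector over its value with the empty vector, with 1 added to each value, and the FTC-133 response was subtracted from the TPC-1 response. Of 19945 protein-coding genes in the deposited tables, 10004 had a mean of at least 5 TPM (transcripts per 1000000) over the 4 vector libraries. Among these, 35 genes moved 2-fold in opposite directions in the 2 lines and 963 moved 2-fold in 1 line only, which makes 998 genes in all. Moved in 1 line only means under 2-fold in the other line, so the 2 responses of such a gene can differ by less than 2-fold.

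In TPC-1 the groups were an NR1D1 overexpression vector and an empty vector, and in FTC-133 they were the same pair, each with 1 library. The labels call the empty-vector cells wild type. TPC-1 is a line from a papillary thyroid carcinoma and FTC-133 a line from a follicular thyroid carcinoma. Another 4 libraries, 1 per group, came from the thyroid cancer lines 8505C and CAL-62 after an siRNA against NR1D1 or a control siRNA, and their values are given beside the members. With 1 library per group there is no replicate error and no test, so every difference below is between libraries, and it cannot be told apart from any other difference between those cultures. The vector's sequence, the time of harvest, and whether cells were taken as pools or clones, are not stated in the sources used here.

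REV-ERB alpha, the product of NR1D1, is a heme-binding nuclear receptor that represses transcription through the NCOR and HDAC3 corepressors. It binds a core AGGTCA preceded by an A/T-rich stretch, the ROR element, where the ROR receptors activate, and it silences the clock activator BMAL1 and its partner NPAS2. REV-ERB alpha is also known to repress inflammatory genes in macrophages and lipid genes in liver.

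Recovered read totals, in units of 1e6 reads, were 22.54 and 23.19 in TPC-1 (NR1D1 vector, empty vector) and 16.11 and 16.64 in FTC-133. Pairs of values below keep that order within a line. The mitochondrial genome held 19.6% and 17.4% of the summed TPM in TPC-1 and 15.7% and 17.4% in FTC-133. The thyroid transcription factor gene PAX8 had 316 and 330 TPM in TPC-1 and 125 and 78.9 TPM in FTC-133, whereas NKX2-1 was listed at 0 in both TPC-1 libraries and at 22 and 14.2 TPM in FTC-133. The thyroid products TG and SLC5A5 were under 1 TPM in all 4. The summed level of 10 fibroblast markers was 5.16 and 4.54 TPM in TPC-1 and 2478 and 3127 TPM in FTC-133, with PDGFRA at 0. The summed level of 10 endothelial markers was 6.62 and 5.68 TPM in TPC-1 and 27 and 4.32 TPM in FTC-133. For 11 leukocyte markers it was 4.39 and 8.20 TPM in TPC-1 and 113 and 59.7 TPM in FTC-133, where CD74 had 112 and 59.4 TPM.

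NR1D1 itself had 209 TPM with its vector and 190 TPM with the empty vector in TPC-1, and 137 and 105 TPM in FTC-133. Its responses were 0.13 in TPC-1 and 0.37 in FTC-133, both under 2-fold, and they differed by -0.24, with a counting interval of -0.37 to -0.11. Here and below, a counting interval is a 95% interval of the TPC-1 minus FTC-133 difference that covers the sampling of reads only. The exons carried by the vector are not known, so these values may miss part of its RNA, and NR1D1 overlaps THRA on the other strand, and no source used here says whether counting used strand.

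Few genes moved in either line. In TPC-1, 486 genes (4.86%) moved at least 2-fold, 264 (2.64%) higher with the NR1D1 vector and 222 (2.22%) lower. In FTC-133, 681 genes (6.81%) did, 404 (4.04%) higher and 277 (2.77%) lower. The difference of the responses was at least 1 on the log2 scale in 685 genes (6.85%), and at or below -1 in 1001 (10%). The median response over the 10004 genes was -0.05 in TPC-1 and 0.04 in FTC-133, and the median difference was -0.10. The response was above 0 in 43.3% of the genes in TPC-1 and in 53.9% in FTC-133, and the difference in 44.1%. Across these genes the responses of the lines had a Pearson correlation of -0.03 and a Spearman correlation of -0.15; the responses share no library, but genes are not independent replicates.

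**Figure D1:**
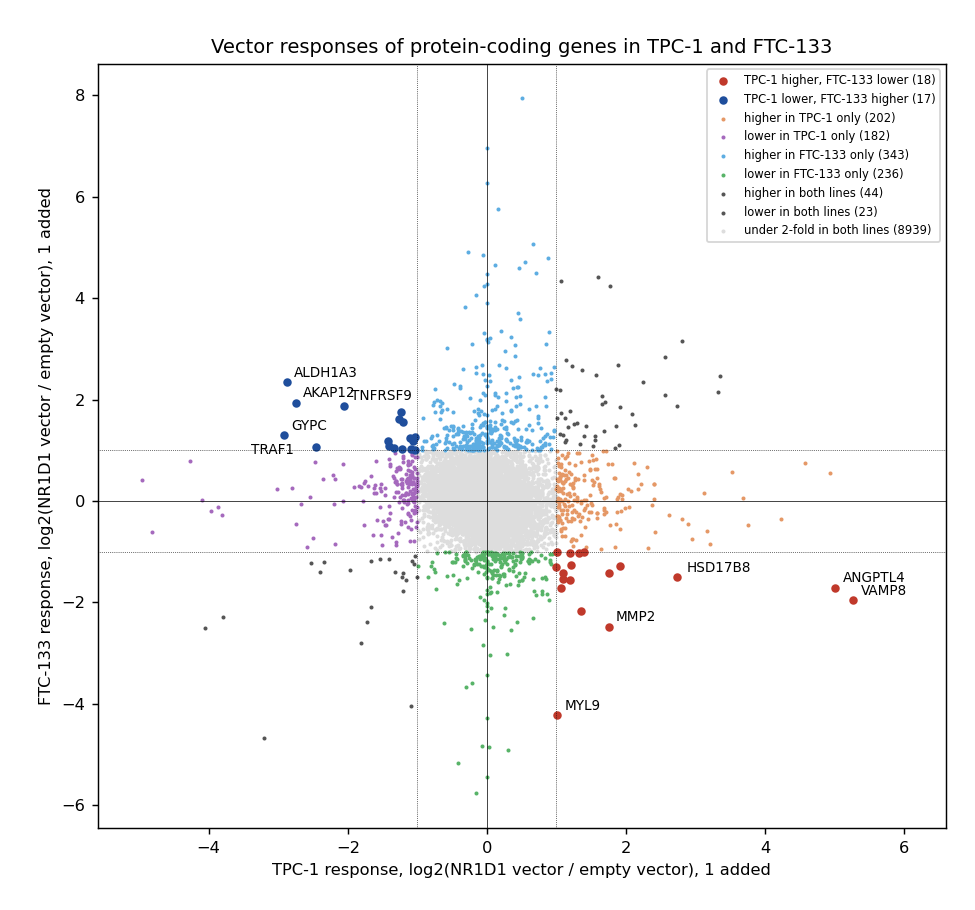
Each point is 1 of 10004 protein-coding genes, with its TPC-1 response on the x axis and its FTC-133 response on the y axis, both log2 of (NR1D1 vector + 1) over (empty vector + 1), and dotted lines at 2-fold. The 18 red points were higher in TPC-1 and lower in FTC-133, the 17 blue points the reverse, and the labels name the 5 genes per direction with the largest difference. Most moved genes lie along 1 axis, 202 and 182 along the TPC-1 axis and 343 and 236 along the FTC-133 axis.

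Genes higher with the NR1D1 vector in TPC-1 and lower with it in FTC-133 numbered 18, or 0.180% of those tested. They are 6.82% of the 264 genes higher in TPC-1, where 2.77% of all genes were lower in FTC-133. They are 6.50% of the 277 genes lower in FTC-133, where 2.64% of all genes were higher in TPC-1. By comparison, 44 of the 264 (16.7%) were higher in FTC-133 as well, beside 4.04% of all genes. Genes lower in TPC-1 and higher in FTC-133 numbered 17, or 0.170%. They are 7.66% of the 222 genes lower in TPC-1, where 4.04% of all genes were higher in FTC-133. They are 4.21% of the 404 genes higher in FTC-133, where 2.22% of all genes were lower in TPC-1. Another 23 of the 222 (10.4%) were lower in both lines, beside 2.77% of all genes lower in FTC-133. The 18 and the 17 genes were selected by the values that follow, so the values describe them and test nothing.

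VAMP8 and ANGPTL4 had the largest differences of the first group. VAMP8, a SNARE of endosomes and lysosomes at chr2:85561562-85582031 (GRCh38), had 82.0 TPM with the NR1D1 vector and 1.14 TPM with the empty vector in TPC-1, and 7.06 and 30.4 TPM in FTC-133. The responses were 5.27 and -1.96, a difference of 7.24 (counting interval 6.41 to 8.07). VAMP8 was thus high in the TPC-1 library with NR1D1 and low in its empty-vector library, on 477 and 7 reads, and its order was turned round in FTC-133, on 29 and 131 reads. ANGPTL4, a secreted inhibitor of lipoprotein lipase at chr19:8363289-8374373, had 40.0 and 0.276 TPM in TPC-1 and 1.08 and 5.79 TPM in FTC-133. The difference of its responses was 6.71 (6.05 to 7.37), and its TPC-1 empty-vector value rested on 4 reads. ANGPTL4 passed the filter only through the TPC-1 library with NR1D1.

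Matrix genes were also among the 18. MMP2, the gelatinase that cuts type IV collagen, lies at chr16:55389700-55506691 and had 108 and 31.3 TPM in TPC-1 and 393 and 2193 TPM in FTC-133. Its responses of 1.75 and -2.48 left FTC-133 above TPC-1 in both settings, and the difference was 4.23 (4.12 to 4.34). LOX, the oxidase that crosslinks collagen, had 5.43 and 1.78 TPM in TPC-1 and 293 and 706 TPM in FTC-133. GPC6, a cell-surface glypican, had 3.49 and 0.718 TPM in TPC-1 and 47.8 and 97.3 TPM in FTC-133. All 3 were lower in TPC-1 than in FTC-133 under either vector.

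Among genes of metabolism, HSD17B8, a hydroxysteroid dehydrogenase that also serves mitochondrial fatty acid synthesis, had 11.6 and 0.883 TPM in TPC-1 and 11.7 and 35.3 TPM in FTC-133. Its level thus differed between the lines with the empty vector and was alike with NR1D1. PPP1R3C, which targets protein phosphatase 1 to glycogen, had 4.56 and 0.470 TPM in TPC-1 and 10.7 and 27.7 TPM in FTC-133. The differences of the responses were 4.25 for HSD17B8 and 3.21 for PPP1R3C.

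The other leading members had varied roles. MYL9, a regulatory light chain of myosin, had 125 and 61.6 TPM in TPC-1, a response of 1.01 just past the limit, and 0.0865 and 19.4 TPM in FTC-133, a response of -4.23 with 1 read in the NR1D1 library. CD24, a GPI-anchored sialoglycoprotein, had 120 and 46.3 TPM in TPC-1 and 62.1 and 284 TPM in FTC-133. TRPM2, a calcium-permeable channel gated by ADP-ribose, had 21.3 and 5.59 TPM in TPC-1 and 0.326 and 2.55 TPM in FTC-133. TLE2, a corepressor of the Groucho family, had 20.4 and 8.30 TPM in TPC-1 and 5.97 and 19.5 TPM in FTC-133, so its 2 lines changed places. CPED1 had 2.84 and 0.821 TPM in TPC-1 and 19.2 and 65.4 TPM in FTC-133. The differences for these 5 genes ran from 2.76 for TLE2 to 5.24 for MYL9.

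The remaining members were UACA, DENND2A, CNIH3, TTC3, CFAP68 and RESF1, with differences of 2.01 to 2.64. RESF1 sat close to the limit in both lines, with 17.1 and 8.03 TPM in TPC-1 and 2.19 and 5.42 TPM in FTC-133, responses of 1.01 and -1.01. Over the 18 genes, the level was lower in TPC-1 than in FTC-133 for 7 with NR1D1 and for 14 with the empty vector, so 7 genes had the lines in swapped order. Among all 10004 genes 37.8% were lower in TPC-1 under the NR1D1 vector and 33.6% under the empty vector. The rule itself moves such genes up in TPC-1, so these counts are a description.

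TNFRSF9, TRAF1 and NFKBIE, of TNF receptor and NF-kB signaling, stood in the opposite group, lower with the NR1D1 vector in TPC-1 and higher in FTC-133. TNFRSF9, a costimulatory receptor of the TNF receptor family at chr1:7915894-7943165, had 19.0 and 82.2 TPM in TPC-1 and 27.8 and 6.82 TPM in FTC-133. The responses were -2.06 and 1.88, and the order of the lines turned round. TRAF1, an adaptor of TNF receptors, had 37.1 and 208 TPM in TPC-1 and 5.43 and 2.06 TPM in FTC-133. NFKBIE, an inhibitor of NF-kB that is itself an NF-kB target, had 26.8 and 73.3 TPM in TPC-1 and 24.7 and 10.3 TPM in FTC-133. The differences were -3.94 (-4.17 to -3.70) for TNFRSF9, -3.53 for TRAF1 and -2.60 for NFKBIE.

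Promoter letters of TNFRSF9 are shown because the gene is the member whose window, from 250 bases before to 50 after the start site, held both an NF-kB motif and an AP-1 motif. The windows are RefSeq sequence on GRCh38.p14, read on the gene's minus strand, and the capitals mark the motif. The start site is that of the RefSeq promoter, which lies inside the gene span given above and not at its outer end. The first lies at chr1:7940894-7940923 and the second at chr1:7940867-7940893, so they adjoin.
TNFRSF9 NF-kB motif: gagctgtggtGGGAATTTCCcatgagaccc
TNFRSF9 AP-1 motif: cgcccctggcTGAGTCAccgcactcct
CD24, which had the opposite responses, carried the same kind of NF-kB motif at chr6:106975756-106975785, also on the minus strand.
CD24 NF-kB motif: ccgccaggagGGGAGGTTCCtgcccccgag

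The receptor ligand and adhesion genes had smaller differences. HBEGF, a heparin-binding ligand of the EGF receptor, had 21.7 and 59.3 TPM in TPC-1 and 25.3 and 11.4 TPM in FTC-133. SEMA4B, a transmembrane semaphorin, had 139 and 322 TPM in TPC-1 and 150 and 50.4 TPM in FTC-133. PVR, the poliovirus receptor and a ligand of immune checkpoint receptors, had 132 and 284 TPM in TPC-1 and 211 and 87.8 TPM in FTC-133. The differences were -2.49, -2.77 and -2.35, and in all 3 genes TPC-1 was the higher line with the empty vector and the lower line with NR1D1.

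HBEGF was also the member whose promoter window held the core letters of a ROR element, just past its start site at chr5:140346554-140346571. The motif TAGGTCA lies on the other strand, and the capitals mark its complement on the minus strand. The window ends just beyond the motif, so it does not show whether the A/T-rich stretch of a full ROR element precedes the core.
HBEGF ROR element core: ctggctggccTGACCTAg

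ALDH1A3, which makes retinoic acid from retinaldehyde, had the most negative difference. Its values were 22 and 169 TPM in TPC-1 and 5.37 and 0.260 TPM in FTC-133, where the empty-vector value rested on 6 reads. The responses of -2.88 and 2.34 gave a difference of -5.22 (-5.56 to -4.88). The scaffold gene AKAP12, which tethers protein kinase A, had 3.90 and 31.9 TPM in TPC-1 and 94.4 and 23.9 TPM in FTC-133. GYPC, the red cell glycophorin C gene, had 0.189 and 7.98 TPM in TPC-1 and 22.1 and 8.38 TPM in FTC-133, so it was about level between the lines with the empty vector and far apart with NR1D1. The differences were -4.69 for AKAP12 and -4.22 for GYPC.

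NOCT, which encodes nocturnin, an enzyme with a daily rhythm in mouse liver, had 70.0 and 166 TPM in TPC-1 and 110 and 32.0 TPM in FTC-133. Its responses were -1.24 and 1.75. CCBE1, a secreted factor of lymphatic growth, had 13.5 and 34.1 TPM in TPC-1 and 154 and 49.5 TPM in FTC-133. HES4, CRMP1, MFSD2A, CADM1 and DOT1L had differences of -2.31 to -2.04. Over the 17 genes, the level was lower in TPC-1 for 14 with NR1D1 and for 6 with the empty vector, with 8 in swapped order.

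**Figure D2:**
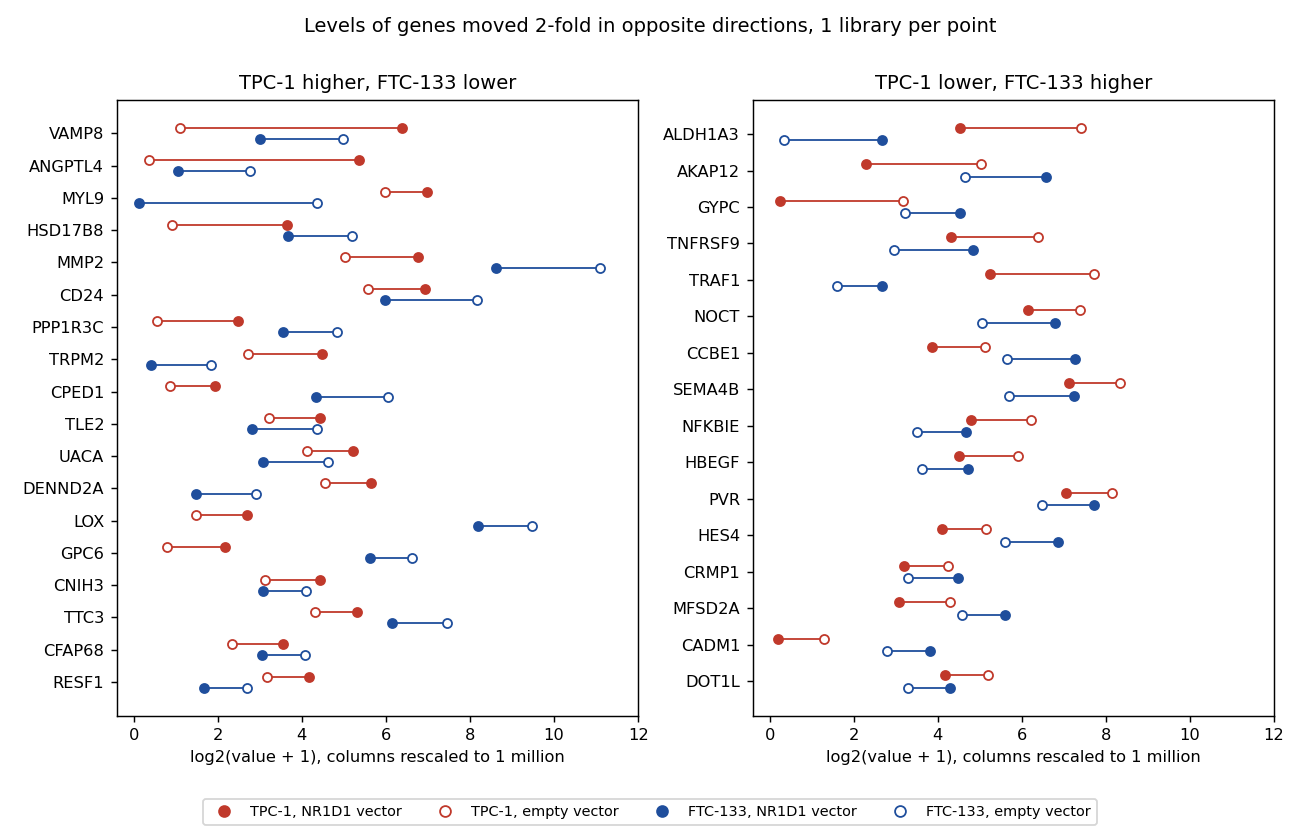
Levels of the genes that moved in opposite directions and had reads in all 4 libraries, as log2(TPM + 1) on the x axis, with TPC-1 in red above FTC-133 in blue for each gene. Filled points are the NR1D1 vector and open points the empty vector, with 1 library per point. In genes such as TNFRSF9, NOCT, SEMA4B and HBEGF the open point is to the right in TPC-1 and to the left in FTC-133, and the levels of the lines overlap, while MMP2 was lower in TPC-1 (108 and 31.3 TPM) than in FTC-133 (393 and 2193 TPM) under either vector.

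Genes next to the limit show how the membership depends on it. TTC3 was just inside, with 38.4 and 18.7 TPM in TPC-1 and responses of 1.0 and -1.30, and DOT1L had -1.03 and 1.01. Just outside were DDIT3, the stress-induced factor CHOP, with responses of -1.10 and 0.98, AEN with -1.32 and 0.95, PODXL with 0.97 and -1.02, and ACAA2 with 1.64 and -0.95. A library with fewer than 10 recovered reads occurred in 6 of the 18 genes and in 4 of the 17. The counting interval of the difference kept to 1 side of 0 in all 18 and in 16 of the 17, and no interval was made where a library was listed at 0. The genes were chosen for large differences, so intervals off 0 were close to given by that choice.

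The siRNA libraries were not used in the choice of these genes. Of the 18 genes, 11 were above 0 after siNR1D1 in 8505C and 8 in CAL-62, where 52.1% and 24.1% of all tested genes were. At 2-fold, 2 were higher and 2 lower in 8505C (8.41% and 2.75% of all genes), and 3 were higher and 0 lower in CAL-62 (2.19% and 10.3%). MMP2 was higher in both, with 83.8 TPM after siNR1D1 and 28.9 TPM after siControl in 8505C, and 10.8 and 1.83 TPM in CAL-62. ANGPTL4 had 0.943 and 0.936 TPM in 8505C and 16.2 and 0.562 TPM in CAL-62. LOX had 446 and 250 TPM in 8505C and 60.5 and 11.1 TPM in CAL-62.

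Of the 17 genes, 14 were above 0 in 8505C and 11 in CAL-62, beside 52.1% and 24.1% of all tested genes. At 2-fold, 3 were higher and 0 lower in 8505C (8.41% and 2.75% of all genes). In CAL-62, 2 were higher and 2 lower (2.19% and 10.3% of all genes). HBEGF was higher in both siRNA lines, with 125 TPM after siNR1D1 and 33.8 TPM after siControl in 8505C and 104 and 39.0 TPM in CAL-62. ALDH1A3 had 23.7 and 23.8 TPM in 8505C and 32.5 and 130 TPM in CAL-62, and AKAP12 had 198 and 128 TPM in 8505C and 73.1 and 265 TPM in CAL-62. Both were thus lower after siNR1D1 in CAL-62, with log2 responses of -1.96 and -1.85, and not in 8505C. CAL-62 had 67.8% of its TPM in the mitochondrial genome after siNR1D1 and 57.2% after siControl, and its median response was -0.36; the part of this in the values above was not tested.

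Promoters of 29 of the 35 genes were found in the RefSeq table, and motifs were searched on both strands. The NF-kB motif, GGGA and TTCC with any 2 bases between them, was in 1 of 16 windows of the genes higher in TPC-1 and lower in FTC-133 and in 1 of 13 of the reverse genes, beside 1.61% of 8223 tested genes and 1.63% of 27305 promoters. The ROR element core TAGGTCA was in 0 of 16 and 1 of 13, beside 1.19% and 1.87%. Every such core also holds the shorter AGGTCA, which was in 1 of 16 and 2 of 13, beside 9.21% and 13.9%. The AP-1 motif TGANTCA was in 0 of 16 and 1 of 13, beside 4.17% and 7.76%, and TGACGTCA was in 0 of either, beside 3.58% and 1.98%. The E-box CACGTG, through which the clock activators work, was in 2 of 16 and 1 of 13, beside 10.5% and 7.43%. It occurred in PPP1R3C at chr10:91633101-91633126, minus strand.
PPP1R3C E-box: gggatcgggtCACGTGcttgggagca
These are letters found in a short window, with counts too small to set apart from the shares of all promoters.

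NF-kB feedback genes and cytokines had the most negative median difference of any list with 10 or more members past the filter. Of 25 genes 23 passed, and 8 were at least 2-fold lower in TPC-1 with the NR1D1 vector while 1 was higher, where 2.22% and 2.64% of all genes were. In FTC-133, 5 were at least 2-fold higher and 3 lower, where 4.04% and 2.77% of all genes were. The median response was -0.80 in TPC-1 and 0.51 in FTC-133, against -0.05 and 0.04 over all genes, and the median difference was -1.50, against -0.10. The lists here and below were chosen with earlier results of these data known. Their ranks and shares therefore describe the lists and test nothing.

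Cytokine genes moved in 1 line or the other. IL1B, the interleukin-1 beta gene, had 2.53 and 15.4 TPM in TPC-1 and 39.3 and 27.2 TPM in FTC-133. TNF had 0.406 and 1.32 TPM in TPC-1 and 35.9 and 8.26 TPM in FTC-133, and CSF1, the macrophage growth factor gene, had 122 and 144 TPM in TPC-1 and 510 and 124 TPM in FTC-133. IL1B was thus 2-fold lower in TPC-1 only, and TNF and CSF1 were 2-fold higher in FTC-133 only. IL32 and CXCL2 were lower in TPC-1 only, with 17 and 62.1 TPM for IL32 and 92.4 and 267 TPM for CXCL2 in that line, and FTC-133 responses of 0.27 and 0.19. LIF, a cytokine of the interleukin-6 family, had 74.1 and 126 TPM in TPC-1 and 276 and 133 TPM in FTC-133.

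Several feedback genes had opposite signs in the lines without passing 2-fold in both. NFKBIA, which encodes the inhibitor that holds NF-kB in the cytoplasm, had 172 and 316 TPM in TPC-1 and 409 and 207 TPM in FTC-133, responses of -0.87 and 0.98. TNFAIP3, the A20 gene, had responses of -0.74 and 0.97, NFKB2 -0.67 and 0.83, and BIRC3, an inhibitor of apoptosis, -1.59 and 0.16. Not every member diverged. CXCL8, the interleukin-8 gene, was lower in both lines, at 739 and 2350 TPM in TPC-1 and 128 and 552 TPM in FTC-133. CXCL1 had responses of -0.80 and -1.28, and IL11 had 0.10 and -1.04. CCL2 had 93.1 and 29 TPM in TPC-1 and 3.18 TPM in FTC-133 with NR1D1, where the empty-vector library listed it at 0. The summed leukocyte list was higher with NR1D1 in FTC-133 through CD74, the invariant chain of MHC class II. CD74 had 0.142 and 0.428 TPM in TPC-1 and 112 and 59.4 TPM in FTC-133. Its responses of -0.32 and 0.90 were under 2-fold in both lines. The defining leukocyte marker PTPRC was listed at 0 and 0.0186 TPM in TPC-1 and at 0 in both FTC-133 libraries, and 5 of the 11 markers were at 0 in all 4 libraries.

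**Figure D3:**
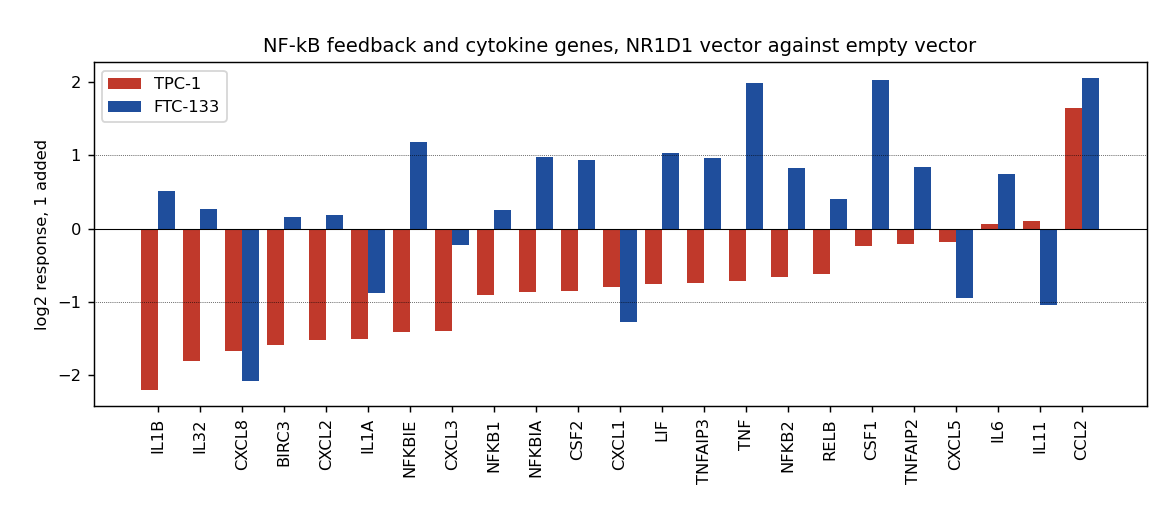
Responses, as log2 of (NR1D1 vector + 1) over (empty vector + 1), of the 23 NF-kB feedback and cytokine genes past the filter, with TPC-1 beside FTC-133 for each gene and 1 library per vector. In TPC-1 3 of the 23 were above 0 and in FTC-133 17 were, where 43.3% and 53.9% of all genes were.

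AP-1 and immediate early genes leaned the same way by smaller steps. Of 16 past the filter, 3 had a positive difference, beside 44.1% of all genes, and the medians were -0.52 in TPC-1 and 0.33 in FTC-133. FOSL1, an AP-1 subunit, had 623 and 1634 TPM in TPC-1 and 488 and 294 TPM in FTC-133. FOSL2 had 170 and 258 TPM in TPC-1 and 311 and 154 TPM in FTC-133. CCN1, a matricellular gene, had 374 and 353 TPM in TPC-1 and 3541 and 1359 TPM in FTC-133. At 2-fold, 2 of the 16 were lower in TPC-1 (2.22% of all genes) and 2 were higher in FTC-133 (4.04%). Among 15 genes of MAPK feedback and output, EPHA2, an ephrin receptor, had 290 and 408 TPM in TPC-1 and 107 and 31.0 TPM in FTC-133, and the list's median difference was -0.35.

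Integrated stress response genes, targets of ATF4, had a positive difference in 1 of 21, beside 44.1% of all genes, with medians of -0.15 in TPC-1 and 0.52 in FTC-133. DDIT3 had 54.7 and 118 TPM in TPC-1 and 123 and 62.0 TPM in FTC-133. TRIB3, an inhibitory pseudokinase, had 64.3 and 67.6 TPM in TPC-1 and 124 and 48.4 TPM in FTC-133, and PHGDH, the first enzyme of serine synthesis, had 27.4 and 19.5 TPM in TPC-1 and 37.5 and 9.25 TPM in FTC-133. The exception was NUPR1, with a difference of 0.56. Some members moved alike in both lines: DDIT4 had responses of 1.05 and 1.32, and STC2 had -1.66 and -1.19. By contrast, the 17 genes of the unfolded protein response had a median difference of 0.14.

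No core clock gene reached 2-fold in either line. Of 14 past the filter, 5 were above 0 in TPC-1 and 9 in FTC-133, near the 43.3% and 53.9% of all genes, and the median difference was -0.41. The period and cryptochrome repressors had opposite signs: PER1 had 28.6 and 52.9 TPM in TPC-1 and 20.4 and 17.1 TPM in FTC-133, and CRY1 had 36.3 and 55.2 TPM in TPC-1 and 33.5 and 25.2 TPM in FTC-133. Their differences were -1.10 (-1.29 to -0.91) and -0.99 (-1.18 to -0.80). NPAS2, a REV-ERB target, went the other way, with 12.9 and 10.1 TPM in TPC-1 and 7.03 and 11.1 TPM in FTC-133, a difference of 0.90. BMAL1 was lower with NR1D1 in both lines, at responses of -0.26 and -0.46, and the counting interval of its difference, -0.16 to 0.57, spanned 0. CSNK1E, a clock kinase, had 70.1 and 87.7 TPM in TPC-1 and 128 and 90.2 TPM in FTC-133. The corepressor genes NCOR1 and HDAC3 had differences of -0.32 and 0.18.

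Collagen and matrix genes diverged gene by gene, not as a list. Of 34 past the filter, 13 moved in 1 line only, beside 9.63% of all genes, and the median difference was -0.04. In both lines more members were higher than lower at 2-fold. In TPC-1, 7 were higher and 2 lower (2.64% and 2.22% of all genes). In FTC-133, 10 were higher and 2 lower (4.04% and 2.77% of all genes). The basement membrane collagen genes COL4A1 and COL4A2, which share a promoter region, were higher in FTC-133 only. COL4A1 had 41.3 and 24.8 TPM in TPC-1 and 315 and 13.1 TPM in FTC-133, and COL4A2 had 50.8 and 36.8 TPM in TPC-1 and 263 and 19.2 TPM in FTC-133. COL13A1, a transmembrane collagen, was lower in FTC-133 only, with 10.8 and 13.6 TPM in TPC-1 and 0.124 and 13.4 TPM in FTC-133. SPARC, a collagen-binding glycoprotein, was higher in TPC-1 only, with 572 and 109 TPM in TPC-1 and 1087 and 1160 TPM in FTC-133. Fibroblast markers moved with these genes in FTC-133 in both directions: POSTN had 161 and 58.8 TPM and LUM 65.7 and 26.8 TPM, while COL1A1 had 671 and 949 TPM. Their part in the result was not tested, and in bulk RNA a change in the share of a kind of cell and a change in RNA per cell cannot be told apart.

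Proteases and adhesion genes were mixed. PLAU, the urokinase gene, had 954 and 1791 TPM in TPC-1 and 1465 and 648 TPM in FTC-133, and among 19 protease genes 6 moved in 1 line only, beside 9.63% of all genes. ITGB1, the common beta chain of many integrins, had 749 and 709 TPM in TPC-1 and 289 and 837 TPM in FTC-133, whereas ITGB3 had 63.6 and 72.6 TPM in TPC-1 and 169 and 48.5 TPM in FTC-133. Epithelial genes were more often higher than lower with NR1D1. Of 9 past the filter, 4 were at least 2-fold higher and 0 lower in TPC-1 (2.64% and 2.22% of all genes). In FTC-133, 3 were higher and 1 lower (4.04% and 2.77% of all genes). Against that direction in TPC-1, KRT7, a simple-epithelial keratin, had 4.90 and 8.91 TPM there and 164 and 34.8 TPM in FTC-133. CLDN1, a tight junction gene, was likewise lower in TPC-1, with 327 and 557 TPM there and 35.8 and 8.91 TPM in FTC-133. The mesenchymal factors ZEB1 and SNAI2 were lower in FTC-133 only, with TPC-1 responses of 0.18 and 0.42 and FTC-133 responses of -1.54 and -1.09. S100A4 was higher in FTC-133 only, with 3.60 and 4.87 TPM in TPC-1 and 45.5 and 6.59 TPM in FTC-133. KRT8 was higher in both lines, at 151 and 57.7 TPM in TPC-1 and 89.3 and 14 TPM in FTC-133.

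Of 16 genes of class I antigen presentation, 10 were above 0 in TPC-1 and 15 in FTC-133, beside 43.3% and 53.9% of all genes, and the median difference was -0.36. HLA-B had 349 and 363 TPM in TPC-1 and 1307 and 453 TPM in FTC-133, and HLA-F had 13.6 and 9.64 TPM in TPC-1 and 28.8 and 4.44 TPM in FTC-133. HLA genes are near-identical to each other, so their counts are uncertain. IRF1, an interferon regulatory factor that drives class I genes, had 20.7 and 32.9 TPM in TPC-1 and 109 and 27.7 TPM in FTC-133. The 29 interferon-stimulated genes as a list had a median difference of -0.06, and IFITM2 had the opposite pattern, with 313 and 94.4 TPM in TPC-1 and 144 and 136 TPM in FTC-133.

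Proliferation lists showed small divergence. The 27 genes of G1/S and DNA replication had medians of -0.38 in TPC-1 and -0.04 in FTC-133, with 2 above 0 in TPC-1 and 13 in FTC-133, beside 43.3% and 53.9% of all genes, and none reached 2-fold. MCM2, a replicative helicase subunit, had 53.9 and 86.4 TPM in TPC-1 and 57.8 and 49.2 TPM in FTC-133. The 34 G2/M genes had a median difference of 0.07, with HMMR lower in FTC-133 only (29.6 and 20.6 TPM in TPC-1, 4.26 and 14.6 TPM in FTC-133) and KIF2C higher there. The 49 ribosomal protein genes, all under 2-fold, had a median difference of 0.01. Cholesterol genes had 0.17 over 22 members and hypoxia and glycolysis genes 0.11 over 27.

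Genes of the mitochondrial genome differed by a median of 0.35 over 13. MT-CYB had 9503 and 8666 TPM in TPC-1 and 3598 and 6787 TPM in FTC-133. The 33 nuclear genes of the respiratory chain had a median difference of -0.20, and none moved 2-fold. FTL, the ferritin light chain gene, was lower in FTC-133 only, with 4884 and 4447 TPM in TPC-1 and 4852 and 12471 TPM in FTC-133.

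**Figure D4:**
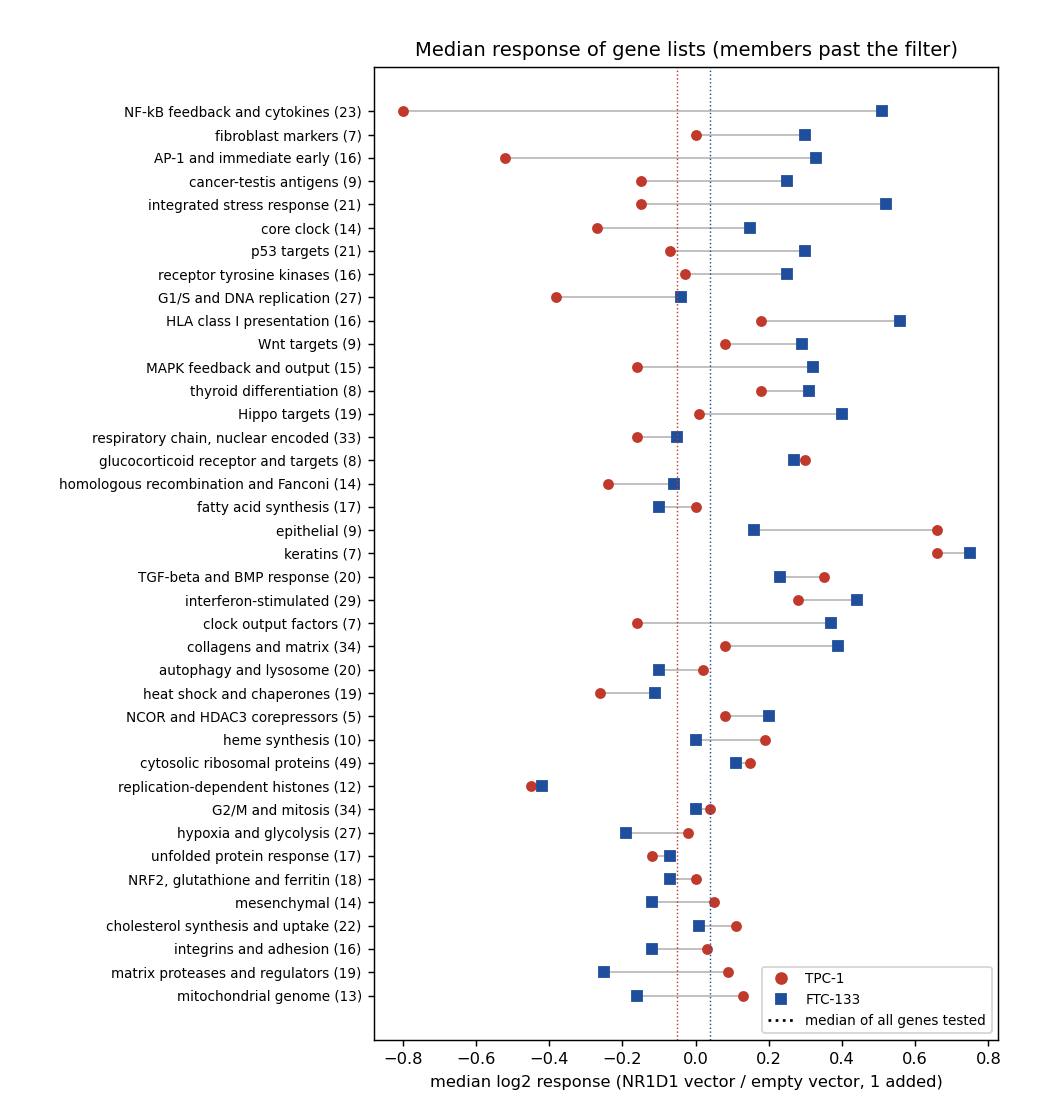
Median response in TPC-1 and in FTC-133 of each gene list with at least 5 members past the filter (their number in brackets), on the log2 scale with 1 added, beside dotted lines at the median of all 10004 genes (-0.05 and 0.04). NF-kB feedback and cytokine genes are the widest apart of the larger lists, at -0.80 in TPC-1 and 0.51 in FTC-133, while ribosomal protein genes lie together at 0.15 and 0.11.

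Genes moved in TPC-1 only were 202 higher and 182 lower. The difference of the responses was at least 2-fold in 136 of the 202 and in 154 of the 182. In 163 and 154 of these the gene had a mean of at least 5 TPM in FTC-133 too, and in 21 and 7 it averaged under 1 TPM there, where the 1 added to each value holds a response near 0. Among the genes expressed in both lines, 69 of the 163 and 63 of the 154 stayed within 0.32 of 0 on the log2 scale in FTC-133.

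The genes named next, for each line and direction, are the 6 of largest change that stayed within that range in the other line and the 3 of largest change that were near 0 there. Higher in TPC-1 only were several secreted matrix genes. EFEMP1, of the fibulin family, had 23.7 and 1.85 TPM in TPC-1 and 375 and 337 TPM in FTC-133. EDIL3, an integrin-binding matrix protein, had 10.6 and 1.20 TPM in TPC-1 and 360 and 349 TPM in FTC-133. Like SPARC, both had a far lower level in TPC-1 than in FTC-133 with the empty vector and stayed lower with NR1D1. AMIGO2, an adhesion protein, had 144 and 31.1 TPM in TPC-1 and 75.2 and 63.3 TPM in FTC-133, and RHOBTB1 had 6.70 and 0.821 TPM in TPC-1 and 8.69 and 7.44 TPM in FTC-133. The metallothionein MT1E, which has close copies, was 3.07 TPM with NR1D1 and listed at 0 with the empty vector in TPC-1.

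Near 0 in FTC-133 were KRT81, a hair keratin with a near-identical copy in KRT86, and NOX5, a calcium-regulated NADPH oxidase. KRT81 had 209 and 7.78 TPM in TPC-1 and 0.882 and 0.120 TPM in FTC-133. NOX5 had 320 and 51.4 TPM in TPC-1 and 0.0969 and 0.332 TPM in FTC-133. PALM, the paralemmin gene, had 29.1 and 6.28 TPM in TPC-1, and in FTC-133 it was listed at 0 with NR1D1 and at 0.0940 TPM with the empty vector. KRT81 and PALM passed the filter only through the TPC-1 library with NR1D1, so they could only be placed as moved in 1 line. Other 1-line members higher in TPC-1 included GDF15, a stress-induced cytokine, with 100 and 18.1 TPM in TPC-1 and 17.1 and 13.3 TPM in FTC-133.

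Lower in TPC-1 only were genes that were close to lost in the NR1D1 library. MRFAP1L1 had 0.315 and 21.6 TPM in TPC-1, on 4 and 276 reads, and 22 and 21.8 TPM in FTC-133. CBR1, a carbonyl reductase, had 0.208 and 17.9 TPM in TPC-1 and 134 and 153 TPM in FTC-133. IAH1, an esterase gene, had 0.864 and 11.9 TPM in TPC-1 and 35.9 and 29.9 TPM in FTC-133. These 3 were expressed in every library but the TPC-1 library with NR1D1, where they were under 1 TPM.

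Signaling genes lower in TPC-1 only were IL24, a cytokine of the interleukin-10 family, with 6.62 and 109 TPM in TPC-1 and 9.70 and 10.7 TPM in FTC-133, and ID3, an inhibitor of basic helix-loop-helix factors induced by BMP, with 9.10 and 81.0 TPM in TPC-1 and 63.7 and 53.7 TPM in FTC-133. ID3 had a difference of -3.26 (-3.60 to -2.93), while its relative ID2 had the opposite sign, 2.22, with 42.6 and 26.4 TPM in TPC-1 and 5.16 and 17 TPM in FTC-133. KRTAP2-3, DCDC2C and ZNF296 were lower in TPC-1 and near 0 in FTC-133. DCDC2C and ZNF296 passed the filter only through the TPC-1 library with the empty vector. KRTAP2-3 had 19.1 and 90.4 TPM in TPC-1 and 0.278 and 1.32 TPM in FTC-133, and it has near-identical copies.

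Genes moved in FTC-133 only were 343 higher and 236 lower. The difference of the responses was at least 2-fold in 271 of the 343 and in 195 of the 236. In 256 and 195 the gene had a mean of at least 5 TPM in TPC-1, and in 59 and 29 it averaged under 1 TPM there. A change of at least 4-fold was found in 27 and 22 of the genes moved in TPC-1 only (higher, lower) and in 73 and 26 of those moved in FTC-133 only.

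Several genes of the FTC-133 group that were already expressed in TPC-1 had, with NR1D1, an FTC-133 level nearer to that of TPC-1. IGFBP7, a secreted binding protein of the insulin-like growth factor family, had 64.8 and 58 TPM in TPC-1 and 78.9 and 0.479 TPM in FTC-133, on 627 and 4 reads. DHRS3, which turns retinaldehyde back to retinol, had 131 and 122 TPM in TPC-1 and 119 and 3.75 TPM in FTC-133. SIMC1 had 11 and 12.4 TPM in TPC-1 and 15.8 TPM in FTC-133 with NR1D1, and it was listed at 0 there with the empty vector. In FAM20C, a kinase of secreted proteins, the FTC-133 level stayed lower, with 286 and 294 TPM in TPC-1 and 37.0 and 1.01 TPM in FTC-133. DPYSL3, a cytoskeletal gene of growth cones, had 413 and 359 TPM in TPC-1 and 147 and 13.4 TPM in FTC-133, and KLHL5 had 56.7 and 49.9 TPM in TPC-1 and 12.3 and 1.08 TPM in FTC-133.

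Near 0 in TPC-1, AEBP1, a collagen-binding matrix protein, had 0.411 TPM and a listed 0 in TPC-1 and 381 and 0.558 TPM in FTC-133, on 7779 and 12 reads. VCAM1, the vascular cell adhesion molecule and an NF-kB target, had 0.0563 and 0.0564 TPM in TPC-1 and 198 and 1.57 TPM in FTC-133. The endothelial markers KDR and TIE1 moved the same way in FTC-133, with 4.85 and 0.493 TPM for KDR and 19.2 and 2.27 TPM for TIE1, while VWF had 0.421 and 0.356 TPM and CDH5 was at 0 in both libraries. The part of such cells in the result was not tested. AEBP1 and VCAM1 passed the filter only through the FTC-133 library with NR1D1, so they could only be placed as moved in 1 line.

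Lower in FTC-133 only were VGF, a secreted neuroendocrine precursor, with 6.61 and 7.0 TPM in TPC-1 and 2.54 and 101 TPM in FTC-133, and AOX1, an aldehyde oxidase, with 152 and 147 TPM in TPC-1 and 0.404 and 10.5 TPM in FTC-133. CPNE7, a copine, had 38.0 and 39.6 TPM in TPC-1 and 3.73 and 33.2 TPM in FTC-133. PAQR5, a membrane progestin receptor, had 57.9 and 49.0 TPM in TPC-1 and 3.79 and 21.7 TPM in FTC-133. RBM38, an RNA-binding p53 target, had 27.6 and 28.0 TPM in TPC-1, and in FTC-133 it was listed at 0 with NR1D1 and at 4.11 TPM with the empty vector. Along with COL13A1, these genes were flat in TPC-1 and low or at 0 in the FTC-133 library with NR1D1.

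Cancer-testis antigen genes, silent in most normal adult tissues outside the testis, moved in 1 line in 7 of the 9 that passed the filter, beside 9.63% of all genes: 3 lower in TPC-1, 1 higher in FTC-133 and 3 lower in FTC-133. PAGE5 was 124 TPM in FTC-133 with NR1D1 and listed at 0 in the other 3 libraries. MAGEB2 had 0.454 and 78.2 TPM in FTC-133, CTAG2 1.22 and 95.4 TPM, and MAGEC2 0.609 and 57.3 TPM. PAGE5, MAGEB2, CTAG2 and MAGEC2 passed the filter only through 1 FTC-133 library, so they could only be placed as moved in 1 line. The count of 7 of 9 is therefore partly set by the filter and cannot be weighed against the 9.63%. In TPC-1, MAGE genes were lower with NR1D1. MAGEA3 was listed at 0 with NR1D1 and at 13 TPM with the empty vector, and it had 85.6 and 104 TPM in FTC-133. MAGEA6 had 0.183 and 35.9 TPM in TPC-1 and 146 and 108 TPM in FTC-133. MAGEA3 and MAGEA6 share nearly all their sequence, as CTAG2 does with CTAG1B, so reads may be split between the copies.

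**Figure D5:**
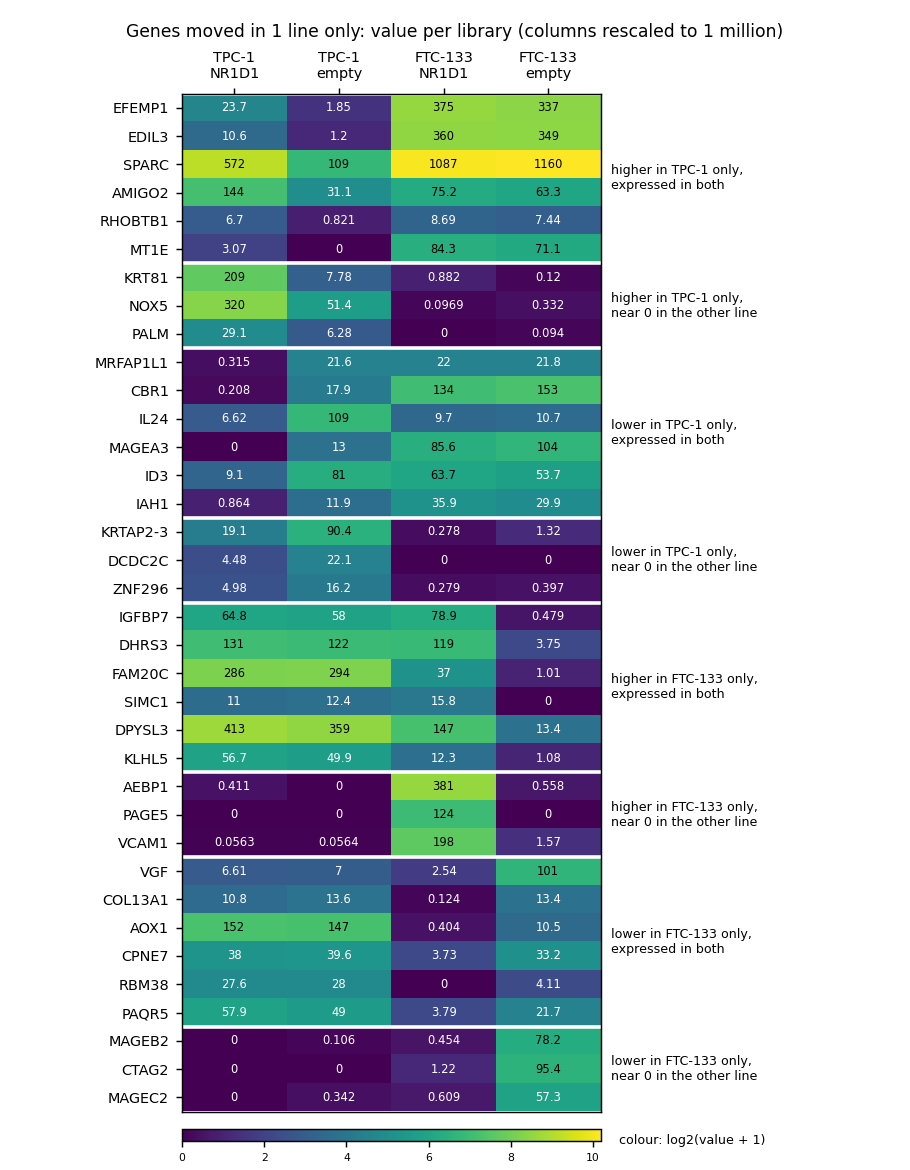
TPM in each of the 4 libraries, for 36 genes moved in 1 line only, on a color scale of log2(TPM + 1) with the value printed in each cell. The genes are grouped by line and direction, with the NR1D1 vector left of the empty vector. They have the largest changes among genes that, in the other line, stayed within 0.32 of 0 on the log2 scale or were near 0 TPM. The colors differ between vectors in 1 line. In the other they are alike, as for IGFBP7 with 64.8 and 58 TPM in TPC-1 and 78.9 and 0.479 TPM in FTC-133, or near the low end.

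Position and siRNA values lay outside the choice of these genes. Of the 202 genes higher in TPC-1 only, 2 (0.990%) lay on the X chromosome, and of the 343 higher in FTC-133 only, 23 (6.71%) did, beside 3.35% of the 10004 genes tested. The median level was 18.9 to 33.9 TPM over the 6 groups, beside 28.9 TPM over all genes. After siNR1D1 in 8505C, 16.8% of the genes higher in TPC-1 only and 21.3% of those higher in FTC-133 only were at least 2-fold higher, beside 8.41% of all genes. Genes lower in TPC-1 only and lower in FTC-133 only were at 14.3% and 14%, so the excess in 8505C was found for groups of both directions. In 8505C, 3.47% and 1.17% of the higher groups were at least 2-fold lower, beside 2.75% of all genes. The lower groups were at 5.49% and 6.36%, so they were called more often than all genes both ways. In CAL-62, 8.91% and 8.16% of the higher groups and 2.20% and 6.78% of the lower groups were at least 2-fold higher, beside 2.19% of all genes. At least 2-fold lower there were 6.44% and 6.71% of the higher groups, beside 10.3% of all genes. The lower groups were at 13.7% and 9.75%.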

How the data were processed

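RNA sequencing of 8 libraries gave 58884 gene identifiers, with 58611 found in GENCODE 29 and 58472 given a symbol by the name table. Per the submitters' processing notes, the build was GRCh38, featureCounts 2.0.0 and Trimmomatic 0.38 were used, and FastQC and MultiQC are named too. The aligner, annotation and strand setting are not given in the sources used here. Per the labels, RNA was extracted with Trizol and libraries followed a standard Illumina preparation.

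The deposited tables of all lines were named TPM by the authors. The columns for 8505C and CAL-62 each summed to 1000000. Those for TPC-1 and FTC-133 summed to 253330.3 to 261469.4, and deposited value times GENCODE 29 exon length gave 1.001 to 1.005 times the sum that FPKM has, so they were read as FPKM, and each column was rescaled to 1000000, which makes it TPM.

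Responses used a pseudocount of 1, so folds of low genes are understated. Reads were recovered from value times length. Of values of 1 to 10 reads, 92.8% to 93.8% were whole within 0.02 in the vector libraries, and 58.8% to 66.7% of all nonzero values were, too few for a count model. These reads served for 95% intervals. With 1 library per group no test was made. The calculation was tried on simulated data.

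Genes were named by rule: 10 per opposite direction, 6 and 3 per line and direction in 1 line as described, up to 4 per list of 43 lists, the clock list and genes nearest the limit. Further members of lists, of the opposite groups and the markers were named after their values were seen. The members and lists were chosen with earlier results of these data known. Promoter letters came from RefSeq, GRCh38.p14. Python 3.11.15, pandas 2.3.3, numpy 2.4.6 and matplotlib 3.10.9 were used. The alternatives were the pseudocount, the filter, the scaling, the fold limit and gene biotypes. A few genes are not reported here.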

Additional observations from a re-analysis of the deposited data

Results flagged for a closer look

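In 35 genes TPC-1 moved one way and FTC-133 the other, each by at least 2-fold, and the 20 with the largest differences, 10 per direction, are given here. These differences were not tested, since each group had 1 library, and the genes were chosen for them. The TPC-1 minus FTC-133 difference of the log2 responses was 7.24 for VAMP8, 6.71 for ANGPTL4, 5.24 for MYL9, 4.25 for HSD17B8 and 4.23 for MMP2. It was 3.52 for CD24, 3.21 for PPP1R3C, 3.18 for TRPM2, 2.79 for CPED1 and 2.76 for TLE2. In the other direction it was -5.22 for ALDH1A3, -4.69 for AKAP12, -4.22 for GYPC, -3.94 for TNFRSF9 and -3.53 for TRAF1. It was -2.99 for NOCT, -2.89 for CCBE1, -2.77 for SEMA4B, -2.60 for NFKBIE and -2.49 for HBEGF.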

How the results depend on the processing

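The counts depend on the limits chosen. They are given as genes higher in TPC-1 and lower in FTC-133, the reverse, higher and lower in TPC-1 only, and higher and lower in FTC-133 only, beside 18, 17, 202, 182, 343 and 236 as reported. A pseudocount of 5 gave 4, 7, 120, 113, 219 and 124. Without a filter on low values they were 30, 27, 349, 284, 616 and 427. A filter at a mean of 1 gave 28 and 27, then 312 higher in TPC-1 only, and 538 and 370. A filter at 20 gave 10, then 102 and 113, and 165 and 113. Values as deposited, not rescaled, so that the filter and the added 1 weigh more, gave 5, 7, 99, 74, 128 and 90. A limit of 1.5-fold gave 133, 197, 484, 718, 922 and 823, and one of 3-fold gave 3, 3, 69, 44, 123 and 52. With all biotypes the opposite groups held 30 and 43. Counts stayed within 1.5 times under a pseudocount of 0.1, a minimum of 10 reads, rescaling without the mitochondrial genome or over nuclear protein-coding genes, and centring on the median gene, which kept 35, 25, 33, 33 and 31 of the 35 opposite genes. The median difference of the NF-kB list ran from -1.73 to -1.39 over the pseudocounts and scalings. Of 336 such values for 56 named genes, 101 fell outside the gene's counting interval and 0 were reversed in sign. Genes with a library listed at 0 had no interval and are not among the 101. With pseudocounts of 0.1 and 5 the difference was 9.06 and 3.92 for ANGPTL4, 8.14 and 5.38 for VAMP8, and 7.73 and 3.23 for MYL9. No paired analysis was possible because each group had 1 library. Depth limits genes with few reads, and no value here measures the spread between cultures.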
